A study of Mus musculus with 16 samples.

Results

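Adrenals of female Senp2cKO mice were compared with those of female WT littermates by bulk RNA sequencing, in 8 of the 16 libraries of the series. The members were chosen by their labels, with earlier results of these data known. This gave 4 Senp2cKO libraries (animals 548, 549, 554 and 598) and 4 WT libraries (animals 531, 536, 538 and 529). All genes of the deposited count table entered the comparison, and the gene lists were also chosen with those results known. Senp2cKO mice were Sf1-Cre/+::Senp2fl/fl, so that Cre, driven by the regulatory region of Sf1 (Nr5a1), acted in steroidogenic cells of the adrenal cortex and also in somatic cells of the gonads and in pituitary gonadotropes. The alleles of the WT animals used for sequencing are not given in the sources used here. All 8 animals were aged 4 weeks, and both groups carry the strain label C57BL6J, whereas the study's methods give a mixed sv129-C57Bl/6 background. The glands were frozen whole and poly(A) RNA was sequenced, so each library holds RNA of the cortex, the medulla, vessels, nerves and blood cells, most of which do not express the Cre, and in the mutants also of cortical cells that escaped recombination. In such bulk samples fewer cells of a type and less RNA per cell cannot be told apart.

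SENP2 is a protease that removes SUMO, a small protein attached to lysines of other proteins by a cascade that starts with the E1 enzyme SAE1/UBA2, and SUMO thereby tunes many nuclear proteins. The adrenal cortex is built of concentric zones: the outer zona glomerulosa (zG) makes aldosterone and is maintained by WNT and beta-catenin, the zona fasciculata (zF) makes corticosterone under ACTH acting through cAMP and protein kinase A (PKA), and in young female mice an inner X-zone persists around the medulla. The medulla holds chromaffin cells, derived from the neural crest, which make adrenaline and noradrenaline.

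Totals ran from 22025873 to 49887958 counts per library, so that 1 CPM (a count divided by the library size, with TMM scaling, and set to the usual common scale) stood for 22.5 to 50.8 counts. Steroidogenic transcripts were abundant in every library, with Star between 6840 and 11980 CPM. The kidney marker Umod was at 0 in all 8 libraries. Kidney markers summed to 101 CPM in WT 531, 41.7 to 51.6 in the other WT libraries and 64.7 to 85.9 in Senp2cKO libraries. Liver markers summed to 972 CPM in WT 531 against 2.75 to 13.2 in the other WT libraries, and to 276 in Senp2cKO 554 and 147 in Senp2cKO 549. Adipocyte markers also summed highest in WT 531, at 3201 CPM against 854 to 2138 in the other libraries. Neuron markers summed to 1303 CPM in Senp2cKO 548 against 433 to 674 elsewhere. On the first principal component, with 38% of the variance, WT libraries lay between -36.2 and -29.2 and Senp2cKO libraries between 23.8 and 45.9.

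In Senp2cKO adrenals 1257 of the 17616 genes tested were called higher (7.14%) and 400 lower (2.27%), a call being a Benjamini-Hochberg adjusted p under 0.05 in edgeR's quasi-likelihood test together with an absolute log2 fold change over 0.58 (1.49-fold). Higher genes thus made up 75.9% of the 1657 called, and 82 of them were over 4-fold higher, while 29 were over 4-fold lower. The Senp2cKO and WT libraries did not overlap for 1539 of the called genes. Over all genes tested, called or not, all Senp2cKO libraries lay above all WT libraries for 13.1% and below them for 11.7%. Genes coding for proteins were called higher in 7.49% and lower in 1.96% of 14889 tested, and long non-coding or unclassified genes in 6.23% and 4.78% of 1926. The number called fell to 1038 without WT 536 and to 1012 without WT 538, and it was 846 without the liver-rich WT 531 and the neuron-rich Senp2cKO 548 together, of which 755 were among the 1657.

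**Figure D1:**
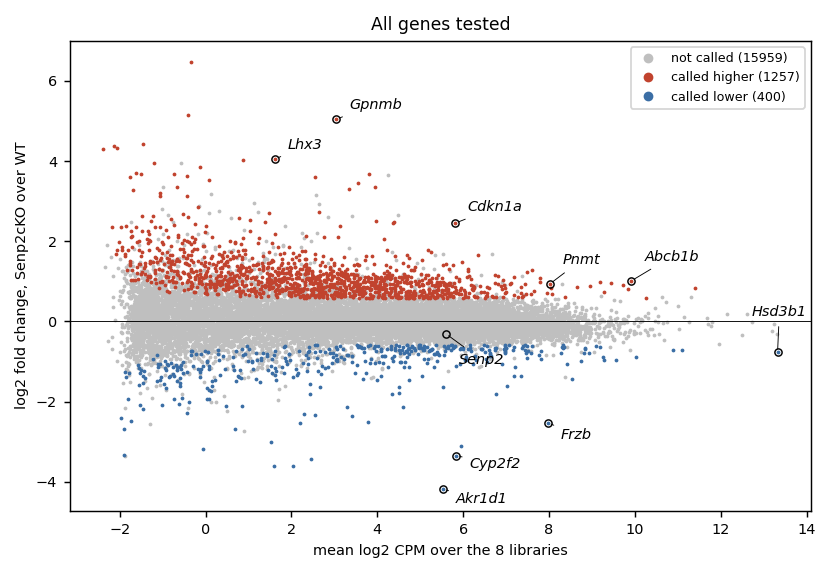
Each dot is 1 of the 17616 genes tested, with the mean log2 CPM of the 8 libraries on the horizontal axis and the log2 fold change of Senp2cKO over WT on the vertical axis. Red dots are the 1257 genes called higher, blue dots the 400 called lower, and named genes are circled. Senp2 itself lies at -0.31 and is not called, and the abundant steroidogenic gene Hsd3b1 lies at -0.78.

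Senp2 (ENSMUSG00000022855, chr16:22009484-22049269 in mm10), the gene deleted by the Cre, had a CPM of 55.4, 54.2, 57.8 and 47.4 in WT 531, 536, 538 and 529 and of 44.9, 41.9, 42.4 and 44.6 in Senp2cKO 548, 549, 554 and 598. Values of 8 libraries are given in this order throughout. All 4 Senp2cKO libraries were below all WT libraries, so the labels and the counts went the same way. The fall was small, with a log2 fold change of -0.31 (SE 0.07, edgeR adjusted p = 0.0216), which is under the fold threshold. Counts of a whole gene also hold reads from exons outside the floxed part and from cells without Cre, and single exons were not analysed here.

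Of the SUMO machinery 1 of 28 tested members, Senp2 included, was called higher and none lower, a share under the 7.14% of all genes tested, with a median log2 fold change of 0.02 against -0.0025 over all genes tested. The member called was Desi1, a cysteine protease that also removes SUMO. Its CPM was 121, 124, 140 and 132 in WT and 207, 230, 265 and 150 in Senp2cKO libraries. Every Senp2cKO library lay above the WT range, Senp2cKO 598 least so, and the log2 fold change was 0.72 (SE 0.15, edgeR adjusted p = 0.0133). Among the conjugating enzymes, Sae1 had a log2 fold change of -0.25 (edgeR adjusted p = 0.0257), under the fold threshold. Other proteases of the family stood at -0.20 for Senp3 (edgeR adjusted p = 0.0371), 0.25 for Senp5 (adjusted p = 0.0448) and 0.36 for Desi2 (adjusted p = 0.0308), each without overlap of the groups and each under the fold threshold. Without WT 531 and Senp2cKO 548 together no member of the list was called.

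The 15 highest genes were led by Gpnmb (ENSMUSG00000029816, chr6:49036546-49070929), a transmembrane glycoprotein of lysosomes and melanosomes that is abundant in lipid-laden macrophages. Its CPM was 1.46, 1.84, 1.16 and 1.48 in WT and 27.9, 89.8, 36.8 and 43.6 in Senp2cKO libraries, that is 33-fold higher. The lowest Senp2cKO library was far above the highest WT library, and Senp2cKO 549 stood highest, with a log2 fold change of 5.05 (SE 0.42, edgeR adjusted p = 0.000511). Lhx3 (ENSMUSG00000026934, chr2:26200212-26208289), a homeodomain factor of pituitary and motor neuron development, was nearly silent in WT at 0.647, 0.755, 0.718 and 0.780 CPM. It reached 13.9, 12.9, 11 and 10.3 CPM in the Senp2cKO libraries, with little spread in either group and a log2 fold change of 4.04 (SE 0.17, edgeR adjusted p = 9.27e-06). Below the minimum level of that set, Atp6v0d2, a subunit of the lysosomal proton pump found in osteoclasts and macrophages, went from 0.0276 to 0.291 CPM in WT to 1.6 to 9.57 CPM in Senp2cKO libraries, again highest in Senp2cKO 549. Its log2 fold change was 5.14 (SE 0.81, edgeR adjusted p = 0.00503), and 4.50 without Senp2cKO 549 and 5.81 without WT 531. Summed macrophage markers ran from 493 to 547 CPM in WT and from 577 to 830 in Senp2cKO libraries, and their part in these rises was not tested.

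Several of the other highest genes belong to nerve, muscle or epithelium in the healthy body. Sv2c, a synaptic vesicle glycoprotein, had 5.28, 3.37, 4.36 and 2.59 CPM in WT and 65.1, 12.3, 37.3 and 55.9 in Senp2cKO libraries. Mybpc1, the slow form of myosin binding protein C, had 5.47, 6.21, 3.40 and 5.65 against 61.2, 92.2, 40.4 and 20.4. Rab6b, a brain-enriched GTPase of Golgi traffic, had 3.72, 4.00, 6.60 and 3.68 against 97.8, 59.7, 62.4 and 11.2. None of these groups overlapped, but the Senp2cKO libraries differed from each other by several-fold, Rab6b being lowest in 598 and Sv2c in 549. Log2 fold changes were 3.46 (SE 0.52) for Sv2c, 3.36 (SE 0.47) for Mybpc1 and 3.68 (SE 0.64) for Rab6b, with adjusted p in edgeR of 0.00555, 0.00434 and 0.00989. The lincRNA Gm39090 had 2.49, 2.77, 4.28 and 3.82 CPM in WT against 25.4, 36.9, 49.7 and 20.1, a log2 fold change of 3.30 (SE 0.32, edgeR adjusted p = 0.000668).

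Cst8, Dusp8 and Inka2 rose from WT levels that varied little. Cst8, a cystatin of the reproductive tract, had 8.19, 8.44, 9.74 and 9.16 CPM in WT and 52.9, 56.7, 41.3 and 46.6 in Senp2cKO libraries. Dusp8, a phosphatase that switches off stress-activated MAP kinases, had 8.54, 9.08, 8.61 and 9.33 against 44.5, 39.5, 49.6 and 61.3. Inka2, an inhibitor of the kinase PAK4, had 7.54, 6.70, 6.4 and 5.96 against 42.7, 45.2, 39.6 and 24.3. In all of these the groups were far apart and the WT libraries lay within a narrow range. Log2 fold changes were 2.47 (SE 0.12) for Cst8, 2.46 (SE 0.13) for Dusp8 and 2.51 (SE 0.19) for Inka2, with adjusted p in edgeR of 1.41e-05, 2.66e-05 and 0.000183. Rhcg, an ammonium transporter of epithelia, had a log2 fold change of 3.59 (SE 0.86, edgeR adjusted p = 0.0284), with 6.27 CPM in WT 529 against 0.635 to 1.42 in the other WT libraries, and of 4.88 without WT 529. Vsig8 (2.53) rested in part on Senp2cKO 554, without which its log2 fold change was 1.88, and Cckar (2.49), the cholecystokinin A receptor, on Senp2cKO 548, without which it was 1.72. Calls of these 3 genes were lost in some fits that left out 1 library: that of Rhcg without WT 531, 536 or 538 or Senp2cKO 548, 554 or 598 (edgeR adjusted p up to 0.0829), that of Vsig8 without WT 536 or 538 (up to 0.0582), and that of Cckar without any one of the WT libraries (up to 0.0684).

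**Figure D2:**
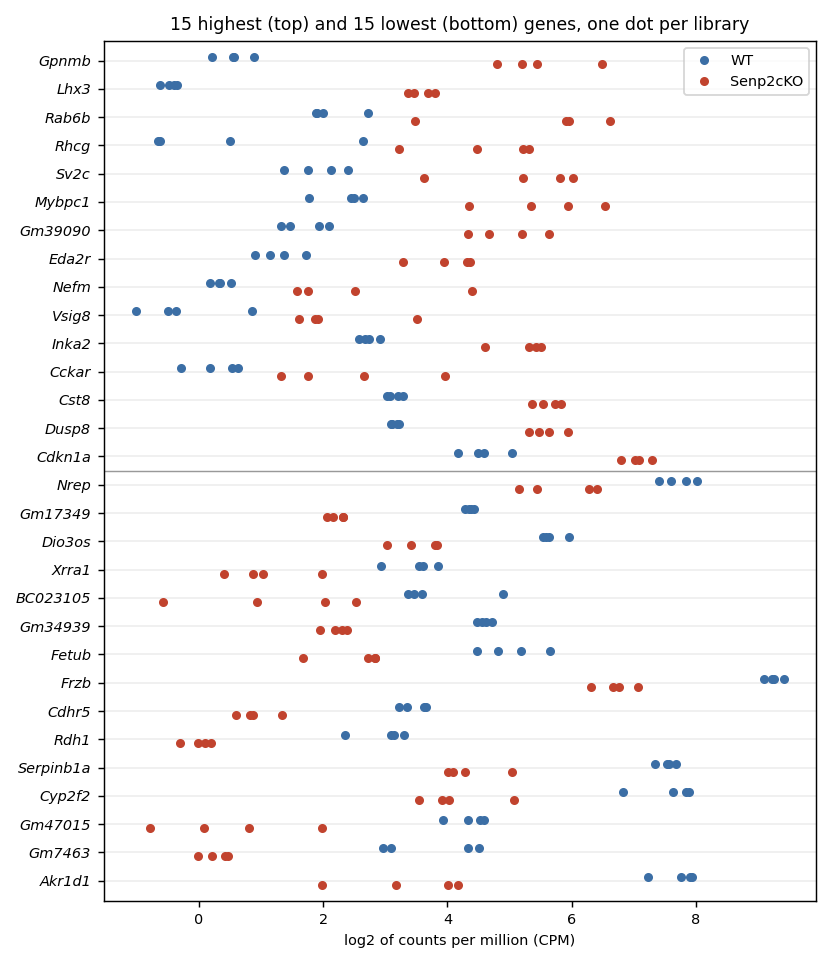
Each dot is a library, WT in blue and Senp2cKO in red, on a horizontal axis of log2 CPM, for the 15 genes highest and the 15 lowest in Senp2cKO by log2 fold change among called genes whose groups did not overlap and whose mean log2 CPM was at least 1. Lhx3, Cst8 and Dusp8 show narrow groups far apart, whereas Rhcg, Nefm, Vsig8 and BC023105 each have 1 library that stands apart from the rest of its group.

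The gene that fell most was Akr1d1 (ENSMUSG00000038641, chr6:37530173-37568815), the steroid 5-beta-reductase that inactivates steroids with a 3-keto-4-ene structure. Its CPM was 246, 150, 217 and 239 in WT and 9.05, 16.1, 3.94 and 17.9 in Senp2cKO libraries, an 18.2-fold difference. Every WT library was many times above every Senp2cKO library, and the log2 fold change was -4.19 (SE 0.48, edgeR adjusted p = 0.00212). Gm7463, a processed pseudogene that lies inside Akr1d1, had -3.60 (SE 0.40, edgeR adjusted p = 0.000942), and since the strand setting of the counting is not given, reads of both genes may not be fully told apart. Cyp2f2, a cytochrome P450 best known from lung club cells, had 236, 198, 228 and 113 CPM in WT against 15.1, 33.8, 16.2 and 11.6. Serpinb1a, an inhibitor of neutrophil proteases, had 205, 184, 188 and 162 against 19.4, 17.1, 16.2 and 32.8. Both fell without overlap, with log2 fold changes of -3.35 (SE 0.40) and -3.11 (SE 0.23) and adjusted p in edgeR of 0.00223 and 0.000234.

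Further down the list stood genes of retinoid, adhesion and thyroid hormone biology at lower levels. Rdh1, a retinol dehydrogenase, had 9.84, 5.13, 8.56 and 8.77 CPM in WT and 0.995, 1.07, 1.14 and 0.807 in Senp2cKO libraries. Cdhr5, a protocadherin of microvilli, had 12.6, 9.32, 12.3 and 10.2 against 1.76, 1.51, 1.82 and 2.52. Their log2 fold changes were -3.01 (SE 0.24) and -2.53 (SE 0.20), both with an adjusted p in edgeR of 0.000183. Fetub, which codes for the protease inhibitor fetuin-B, had -2.52 (SE 0.33, edgeR adjusted p = 0.00241), with Senp2cKO 598 at 3.19 CPM and the other Senp2cKO libraries at 6.59 to 7.13. Dio3os, transcribed beside the gene of the thyroid hormone inactivating deiodinase Dio3, had 62.2, 49.8, 48.3 and 46.2 CPM against 10.6, 13.9, 14.2 and 8.19, a log2 fold change of -2.14 (SE 0.18, edgeR adjusted p = 0.000274). Xrra1 had -2.31 (SE 0.34, edgeR adjusted p = 0.00315), Nrep -1.82 (SE 0.30, adjusted p = 0.00635) and the lincRNA Gm47015 -3.43 (SE 0.50, adjusted p = 0.0041), the last -4.12 without Senp2cKO 598. Gm34939 and Gm17349 overlap each other on chromosome 15, the first annotated as antisense, and had -2.37 (SE 0.12) and -2.14 (SE 0.11), both with an adjusted p of 1.41e-05 in edgeR. BC023105 (-2.33, edgeR adjusted p = 0.0387) had 29.6 CPM in WT 529 against 10.3 to 12.1 in the other WT libraries, and it was called only when Senp2cKO 548 or 549 was the library left out (adjusted p up to 0.0871 in the other fits).

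Short windows of promoters are shown for Senp2, the targeted gene, and for some of the genes called higher whose promoters held a motif. Sites found for Vsig8, Mitf, Hlf, Plk2 and Syn1 are not shown. The factors that read these motifs, SF-1 and the cAMP response factors, control steroidogenic cells. The windows are from RefSeq on GRCm38.p6, 5' to 3' on the gene's strand, with the motif in capitals.
Dusp8 first: gcccgctccgcTGACGTCAcctgcccccga
Dusp8 second: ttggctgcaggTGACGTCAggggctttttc
Cst8: tgcctgggcttCAAGGTCAggacttacata
Adcy1: ggagtggtgccCAAGGTCAcgtggcccctt
Scg2: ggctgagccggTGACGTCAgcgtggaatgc
Cartpt: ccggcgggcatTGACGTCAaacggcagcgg
Cdkn2b: tatttgtctcaTGACGTCAccaagtgtggg
Senp2: gcggaagaaggTGACGTCAacggcttctag

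These windows lie at chr7:142095373-142095402 and chr7:142095329-142095358 (Dusp8, minus strand), chr2:148798780-148798809 (Cst8, plus), chr11:7063247-7063276 (Adcy1, plus), chr1:79440076-79440105 (Scg2, minus), chr13:99900777-99900806 (Cartpt, minus), chr4:89311060-89311089 (Cdkn2b, minus) and chr16:22009398-22009427 (Senp2, plus). The motifs searched on both strands were CAAGGTCA, the SF-1 site, TGACGTCA, the cAMP response element, and TCACGTGA, the core of the CLEAR element of lysosomal genes, in 300 bases per gene from 250 before to 50 after the start. Dusp8 held 2 cAMP response elements, 107 to 100 and 63 to 56 bases before its RefSeq start, and Senp2 held 1 at 75 to 68 bases. Both Dusp8 windows lie inside the gene as annotated for the counts (chr7:142079490-142095843). The Cst8 window begins just before its gene in that annotation (chr2:148798785-148805595), and its motif lies inside that gene. A promoter was found for 12561 of the 17616 genes tested. The cAMP response element was in 4.35% of promoters of genes called higher, 1.74% of those called lower and 3.28% of all tested. Shares of the SF-1 site were 2.12%, 2.17% and 1.39%, and of the CLEAR core 1.23%, 0.87% and 1.92%, in the same order. These matches are a description of letters in a window, with no test.

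Of the 36 tested genes of steroid hormone synthesis, 5 were called lower and none higher, where 2.27% of all genes tested were called lower, with a median log2 fold change of -0.18. The 5 were Akr1d1, Srd5a1, Nr0b1, Hsd3b1 and Cyp17a1, and each was called in all 8 fits that left out 1 library. Hsd3b1, the 3-beta-hydroxysteroid dehydrogenase that turns pregnenolone into progesterone, had 13140, 12830, 13520 and 14410 CPM in WT and 6572, 8812, 7869 and 8214 in Senp2cKO libraries. The groups lay well apart, with means of 13470 ± 687 and 7867 ± 947 (SD, n = 4 each) and a log2 fold change of -0.78 (SE 0.11, edgeR adjusted p = 0.00226). Srd5a1, a steroid 5-alpha-reductase that also marks the X-zone, had 48.7, 69.6, 49.5 and 45.5 against 17.8, 19.1, 24.1 and 21.5, a log2 fold change of -1.37 (SE 0.15, edgeR adjusted p = 0.000767). Nr0b1 (DAX-1), a nuclear receptor that represses SF-1 activity, had 40.1, 39.4, 36.2 and 45.2 against 10.5, 12.1, 14.5 and 14.8. It showed one of the cleanest falls of the list, with a log2 fold change of -1.63 (SE 0.13, edgeR adjusted p = 0.000183). Cyp17a1, which in adult mice belongs to the gonads, was near 1 CPM or below in all libraries, at 0.724 to 0.911 in WT and 0.223 to 0.365 in Senp2cKO (log2 fold change -1.39, edgeR adjusted p = 0.00548).

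The other steps from cholesterol to corticosterone did not pass the test in these 8 libraries. Star, which carries cholesterol into mitochondria, had 10640, 11670, 11980 and 11780 CPM in WT and 8765, 9704, 11940 and 6840 in Senp2cKO libraries. The groups overlapped through Senp2cKO 554, and the log2 fold change was -0.31 (SE 0.16, edgeR adjusted p = 0.194). Cyp11a1, the side-chain cleavage enzyme, had 0.20 (SE 0.13, edgeR adjusted p = 0.333), Cyp21a1 -0.24 (SE 0.14, adjusted p = 0.265) and Cyp11b1, the last step to corticosterone, -0.35 (SE 0.15, adjusted p = 0.14). Cyp11b2, the aldosterone synthase, ranged from 176 to 494 CPM in WT and from 70.0 to 706 in Senp2cKO libraries. Scarb1, the HDL receptor that feeds cholesterol into the pathway, had 0.39 (SE 0.25, edgeR adjusted p = 0.315). Cyb5a, an electron donor, lay lower in all Senp2cKO libraries but under the fold threshold (-0.44, SE 0.10, edgeR adjusted p = 0.0189), as did Hsd17b4 (-0.31, SE 0.09, adjusted p = 0.0342). Nr5a1, which codes for SF-1, had 1065, 984, 1031 and 2146 CPM against 1560, 1531, 1949 and 1553, with WT 529 above all others and no call (0.34, edgeR adjusted p = 0.382). Per kilobase of the gene's median transcript length, Cyp21a1 was the highest of the synthesis enzymes in both groups. Its mean was 13750 CPM per kb in WT and 11610 in Senp2cKO, followed by Hsd3b1 at 7659 and 4472. Summed over the list, CPM ran from 53890 to 62920 in WT and from 42330 to 58040 in Senp2cKO libraries, with overlap through Senp2cKO 554.

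Zonal markers went in both directions. Of 13 tested zG markers 2 were called higher and 2 lower, and of 7 zF markers 1 each way, where 7.14% of all genes tested were called higher and 2.27% lower, with medians of 0.12 and -0.11. Kcnk3, a background potassium channel that holds zG cells hyperpolarised, had 3049, 2637, 2782 and 2782 CPM in WT and 1417, 1742, 1897 and 1761 in Senp2cKO libraries, a log2 fold change of -0.72 (SE 0.10, edgeR adjusted p = 0.00241). Agtr1b, an angiotensin II receptor, had 34.6, 32.1, 46.7 and 31.1 against 23.7, 18.5, 15 and 25 (-0.81, SE 0.19, edgeR adjusted p = 0.0177). Both fell without overlap. Dab2, the marker commonly used to outline the zG, had -0.18 (SE 0.10, edgeR adjusted p = 0.24), and Calb1, a calcium-binding protein at most at 1.02 CPM, was called higher with all 8 libraries (1.30, adjusted p = 0.0448) but in none of the fits that left out 1 of them (adjusted p up to 0.103). In the zF list, Abcb1b, a drug efflux pump of steroidogenic cells, had 543, 682, 634 and 910 CPM against 1147, 1318, 1459 and 1663 and rose 2.02-fold (log2 fold change 1.01, SE 0.17, edgeR adjusted p = 0.00483), while the WNT antagonist Frzb fell. Akr1b7 had 947, 1021, 1480 and 2314 CPM in WT and 1331, 1551, 4549 and 1375 in Senp2cKO libraries, with 554 far above the rest (0.61, edgeR adjusted p = 0.421). The X-zone marker Akr1c18 varied widely in both groups, at 121, 16.6, 242 and 345 CPM against 140, 30.4, 21.7 and 138 (-1.13, SE 0.96, edgeR adjusted p = 0.453), and Sbsn, a secreted epithelial protein, was called higher (0.77, SE 0.16, edgeR adjusted p = 0.0114) next to Srd5a1 lower.

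Of 44 tested receptor and effector genes of the ACTH pathway 4 were called higher and 1 lower, with a median log2 fold change of 0.20, and these shares were near the 7.14% and 2.27% of all genes tested. The receptor Mc2r (-0.11, edgeR adjusted p = 0.503) and its accessory protein Mrap (0.21, adjusted p = 0.556) did not pass the test. Of the adenylyl cyclases, which make cAMP, Adcy9 had 87.5, 90.3, 87.2 and 97.0 CPM in WT and 60.3, 57.5, 59.8 and 52.3 in Senp2cKO libraries, a fall of 0.66 on the log2 scale (SE 0.07, edgeR adjusted p = 0.000596). Adcy1 had 8.41, 9.59, 10.8 and 11.2 against 17.2, 16.6, 15.8 and 15.8, a rise of 0.71 (SE 0.11, edgeR adjusted p = 0.00395). These opposite changes were both free of overlap and were called in all 8 fits that left out 1 library. For the kinase itself, the catalytic subunit Prkaca had -0.21 (edgeR adjusted p = 0.148), and the regulatory subunit Prkar2b had 351, 377, 330 and 310 CPM against 210, 230, 288 and 188, a log2 fold change of -0.58 (SE 0.13, adjusted p = 0.0145) just under the fold threshold. Prkar1b, a regulatory subunit of neurons (0.61), the phosphodiesterase Pde4b (1.0) and the anchor Akap5 (1.02) were called higher with adjusted p in edgeR of 0.0437, 0.0388 and 0.047. Each of these last calls held in only 2 of the 8 fits that left out 1 library (edgeR adjusted p up to 0.128 in the others). Prkar1b and Pde4b were called without Senp2cKO 549 or 554, and Akap5 without WT 529 or Senp2cKO 554. Of the list, 2 members were called without WT 531, WT 536, Senp2cKO 548 or Senp2cKO 598. Without WT 538 it was 3, none of them Prkar1b, Pde4b or Akap5. Genes that cAMP and stress induce within minutes had 1 of 14 called, Ier2 (0.62, edgeR adjusted p = 0.0317), with a median of 0.61. They were highest in Senp2cKO 598, where Fos had 174 CPM against 10.1 to 104 in the other Senp2cKO libraries and Fosb 56.6 against 1.64 to 6.32. None of the 14 was called without WT 531, 536 or 538 or Senp2cKO 548 or 598, and 2 were without Senp2cKO 554.

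In the WNT and beta-catenin pathway 7 of 72 tested genes were called higher and 1 lower, with a median of 0.15, and these shares were near those of all genes tested (7.14% higher and 2.27% lower). The gene that fell was Frzb (ENSMUSG00000027004, chr2:80411970-80447625), a secreted antagonist that binds WNT ligands. It had 548, 598, 683 and 608 CPM in WT and 109, 134, 101 and 79.1 in Senp2cKO libraries, 5.76-fold lower, with a log2 fold change of -2.53 (SE 0.15, edgeR adjusted p = 4.27e-05). Among targets, Axin2, the classical readout of beta-catenin, had 88.2, 99.2, 116 and 91.2 against 135, 173, 156 and 139 (0.61, SE 0.11, edgeR adjusted p = 0.00611). Lgr5, a receptor for R-spondins and itself a target, had 36.7, 41.5, 37.3 and 46.1 against 59.5, 62.7, 50.7 and 86.5 (0.68, SE 0.16, edgeR adjusted p = 0.0176). Neither gene's groups overlapped. The beta-catenin gene Ctnnb1 lay lower, at 894 to 994 CPM in WT and 749 to 816 in Senp2cKO libraries (-0.32, SE 0.07, edgeR adjusted p = 0.0137), under the fold threshold. The receptor Fzd10 rose from 1.05 to 1.67 CPM to 3.01 to 4.61 (1.44, SE 0.22, edgeR adjusted p = 0.00351), and Apc2, a brain-enriched relative of Apc, from 9.61 to 10.7 CPM to 18.4 to 34.2 (1.18, SE 0.20, adjusted p = 0.00491). The ligands Wnt6 (0.62) and Wnt9b (1.26) and the antagonist Sfrp5 (0.90) were called higher, with adjusted p in edgeR of 0.0191, 0.0133 and 0.0424, whereas Wnt4, the main WNT of the cortex, had 0.12 (adjusted p = 0.684) and the capsular Rspo3 0.35 (adjusted p = 0.303). Fzd10, Frzb and Apc2 were called in all 8 fits that left out 1 library. Of the others, Axin2 was not called without WT 531, WT 529 or Senp2cKO 549 (log2 fold change down to 0.54), Lgr5 without WT 536, WT 538 or Senp2cKO 598, Wnt6 without WT 536, WT 529 or Senp2cKO 598, Wnt9b without WT 536, and Sfrp5 without any WT library or without Senp2cKO 548 or 598 (edgeR adjusted p up to 0.109). The number of the list called was 4 without WT 536 and 5 without Senp2cKO 598.

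Hedgehog signalling links the zG, which makes the ligand Shh, with Gli1-positive progenitors of the capsule. Shh had 54.2, 73.2, 81.8 and 71.5 CPM in WT and 124, 133, 115 and 137 in Senp2cKO libraries. Gli1, its transcriptional effector and target, had 17.9, 19.1, 20.7 and 17.6 against 28.4, 28.8, 28.7 and 29.1, with almost no spread in the mutants. Both rose without overlap, by a log2 fold change of 0.86 (SE 0.12) for Shh and 0.61 (SE 0.08) for Gli1, with adjusted p in edgeR of 0.00211 and 0.00148, and were called in all 8 fits that left out 1 library. They were the only 2 of 11 tested pathway genes called, with a median of 0.12. The receptor Ptch1 had 0.16 (edgeR adjusted p = 0.106) and the transducer Smo -0.25 (adjusted p = 0.03). Of the 13 capsule and progenitor markers Gli1 alone was called, where 7.14% of all genes tested were called higher.

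Of 23 tested genes that p53 activates 11 were called higher and none lower, where 7.14% of all genes tested were called higher, with a median log2 fold change of 0.88 against -0.0025 over all genes tested. Cdkn1a (ENSMUSG00000023067, chr17:29090976-29100727), the cyclin-dependent kinase inhibitor p21, had 24.2, 22.4, 17.9 and 33.0 CPM in WT and 135, 111, 129 and 157 in Senp2cKO libraries, 5.45-fold higher. The lowest mutant library stood over 3 times above the highest WT library (log2 fold change 2.45, SE 0.19, edgeR adjusted p = 0.00021). Eda2r, a receptor for ectodysplasin A2, had 2.2, 2.58, 1.88 and 3.29 against 20, 15.3, 9.76 and 20.5 (2.72, SE 0.27, edgeR adjusted p = 0.000516). Sesn2, a stress sensor that restrains mTORC1, had 17.7, 20.1, 16.5 and 20.5 against 47.9, 43.6, 41.4 and 49.4 (1.29, SE 0.10, edgeR adjusted p = 0.000183). Zmat3, an RNA-binding protein, had 46.6, 46.6, 46.8 and 49.9 against 116, 103, 85.8 and 111 (1.13, SE 0.09, edgeR adjusted p = 0.00021). All 4 genes were clear of overlap. Gdf15, a stress cytokine (1.61, SE 0.26), Tnfrsf10b, a death receptor (1.07, SE 0.12), and Aen, an exonuclease of apoptosis (0.97, SE 0.10), followed with adjusted p in edgeR of 0.00394, 0.000767 and 0.000595. These 7 were called in all 8 fits that left out 1 library, and they were the only ones of the list called without WT 536. Ccng1, Plk2, Perp and Psrc1 made up the rest, with log2 fold changes of 0.72 to 0.97 and, in edgeR, adjusted p of 0.0142 to 0.0327. Besides WT 536, leaving out WT 538 or Senp2cKO 548 also ended the calls of Ccng1, Plk2 and Psrc1 (edgeR adjusted p up to 0.0924). Mdm2, which degrades p53, had 75.2 to 95.3 CPM in WT and 126 to 133 in Senp2cKO libraries (0.54, SE 0.08, edgeR adjusted p = 0.0031), without overlap but under the fold threshold, like the pro-apoptotic Bax (0.42, adjusted p = 0.00439) and Bbc3 (0.57, adjusted p = 0.0227). Polk went the other way (-0.42, edgeR adjusted p = 0.0177). Summed over the list, CPM was 836 to 1007 in WT and 1281 to 1764 in Senp2cKO libraries.

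Of 22 core genes of apoptosis 1 was called higher and 1 lower, where 7.14% of all genes tested were called higher and 2.27% lower. The called genes were the sensitiser Bcl2l11, higher (0.75, edgeR adjusted p = 0.026), and Bmf, lower (-0.59, adjusted p = 0.0309). The list had a median of -0.01, and none of it was called without WT 536, WT 538 or Senp2cKO 548. The call of Bmf was also lost without WT 531, Senp2cKO 549 or Senp2cKO 598, and that of Bcl2l11 without Senp2cKO 598. Casp9 had 47.8 to 52.4 CPM in WT and 31.2 to 38.3 in Senp2cKO libraries (-0.48, SE 0.08, edgeR adjusted p = 0.00543), without overlap and under the fold threshold. No gene of mitochondrial fission and fusion was called among 9 tested, with a median of -0.04.

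Of 18 proliferation genes 4 were called lower and none higher, where 2.27% of all genes tested were called lower. The median log2 fold change was -0.83, and all 18 had a log2 fold change below 0. The called genes were Mcm2, Mcm3 and Mcm6, subunits of the replicative helicase, and Pcna, the sliding clamp of DNA polymerase. Mcm2 had 107, 86.9, 85.4 and 73.5 CPM in WT and 57.1, 57.1, 60.5 and 59.0 in Senp2cKO libraries (-0.59, SE 0.10, edgeR adjusted p = 0.00566). Mcm6 had 69.3, 62.8, 50.3 and 60.7 against 34.7, 22.4, 15.9 and 38.0 (-1.13, SE 0.26, edgeR adjusted p = 0.0207). Both were free of overlap, and Mcm3 fell by 0.69 on the log2 scale (SE 0.14, edgeR adjusted p = 0.0108) likewise, while Pcna overlapped (-0.71, adjusted p = 0.0438). Mki67, a marker of cycling cells, had 55.8, 28.1, 27.5 and 11.2 CPM in WT and 19.8, 3.60, 12.4 and 18.9 in Senp2cKO libraries (-1.15, SE 0.61, edgeR adjusted p = 0.227), with overlap, the highest value being that of WT 531. No member was called without WT 531, and 2 were without WT 536 or Senp2cKO 549. The nuclear lamina gene Lmnb1, listed with the senescence genes, had 47.8, 39.9, 39.3 and 31.9 CPM against 25.4, 22.6, 25.5 and 27.1 (-0.66, SE 0.12, edgeR adjusted p = 0.0068) and was -0.56 without WT 531, under the fold threshold. Besides Cdkn1a and Gdf15, the senescence list had Cdkn2b, the kinase inhibitor p15, called higher, with 3.46, 3.40, 3.06 and 4.15 CPM against 7.03, 5.61, 8.89 and 8.05 (1.07, SE 0.18, edgeR adjusted p = 0.00496). Summed over proliferation genes, CPM was 273 to 562 in WT and 160 to 271 in Senp2cKO libraries.

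**Figure D3:**
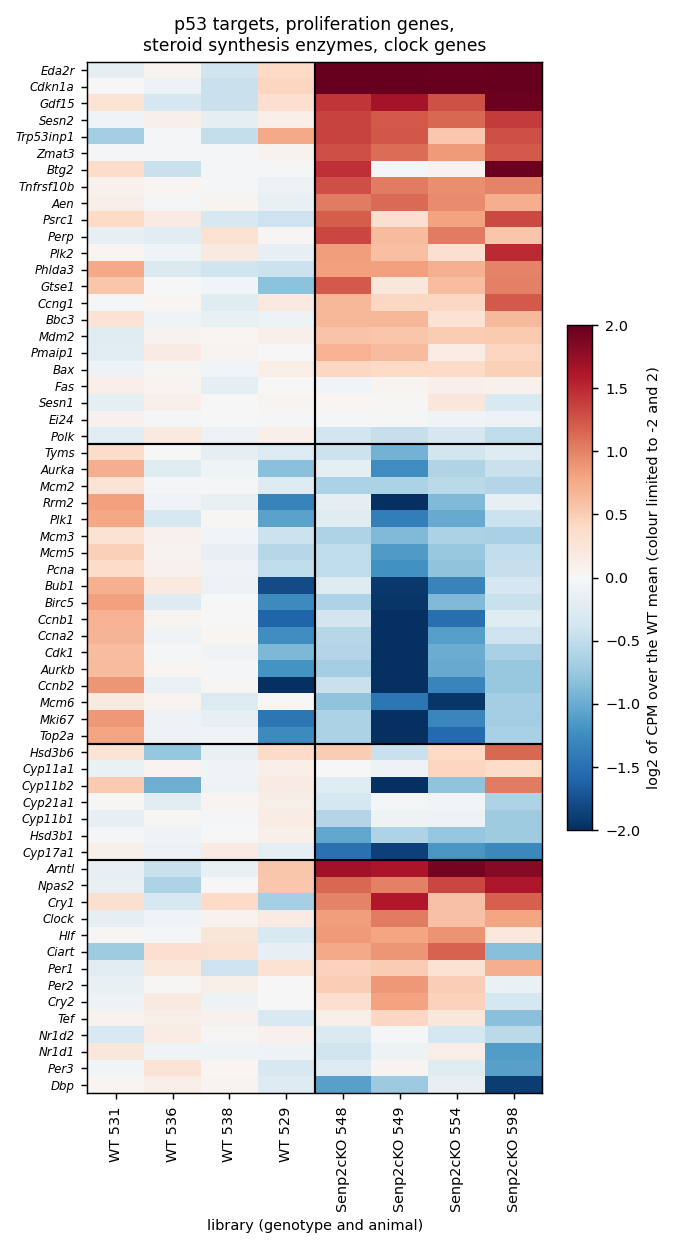
Rows are the tested p53 target genes, proliferation genes, steroid synthesis enzymes and clock genes (top to bottom, separated by lines), and columns are the 8 libraries. Colour gives the log2 of CPM over the WT mean, limited to the range from -2 to 2. Cdkn1a is at the red limit in all Senp2cKO libraries, proliferation genes are palest in Senp2cKO 548 and 598 and strongest blue in 549, and Hsd3b1 and Cyp17a1 are blue in every Senp2cKO library.

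Of 23 tested chromaffin cell genes 16 were called higher and none lower, where 7.14% of all genes tested were called higher. All 23 had a log2 fold change above 0, and the median was 0.91. Pnmt, which turns noradrenaline into adrenaline, had 182, 185, 198 and 187 CPM in WT and 423, 322, 319 and 369 in Senp2cKO libraries, 1.91-fold higher (log2 fold change 0.93, SE 0.10, edgeR adjusted p = 0.000587). Ddc, the decarboxylase that makes dopamine, had 46.9, 40.5, 48.9 and 52.5 against 143, 84.5, 73.9 and 108 (1.12, SE 0.19, edgeR adjusted p = 0.00679). Chga, the main protein of the secretory granules, had 2201, 1837, 2035 and 2212 against 3589, 2771, 3464 and 4843 (0.82, SE 0.16, edgeR adjusted p = 0.00818). None of these groups overlapped. Th, the rate-limiting enzyme of catecholamine synthesis, had 250, 206, 218 and 280 against 429, 256, 344 and 791, with Senp2cKO 549 inside the WT range and no call (0.93, SE 0.32, edgeR adjusted p = 0.0818). Also called were Dbh (0.86), Scg3 (0.91), Scg5 (1.0), Pcsk1n (1.15), Cartpt (1.22), Gata2 (0.84), Gata3 (1.14) and Insm1 (0.85), all of which, with Pnmt, Ddc and Chga, were called in all 8 fits that left out 1 library (edgeR adjusted p in the fit of all 8 from 0.000511 to 0.0138). Further calls were lost in some such fits (edgeR adjusted p up to 0.119): those of Npy, Scg2 and Phox2a without any one of the WT libraries or Senp2cKO 548, that of Npy and Phox2a also without Senp2cKO 598, and that of Slc18a1 without WT 536, WT 538, Senp2cKO 548 or Senp2cKO 598. Summed CPM of the list was 5646 to 6856 in WT and 10940, 7357, 9541 and 15760 in Senp2cKO libraries, and 9 members were called without WT 531 and Senp2cKO 548 together. The summed levels of the steroid synthesis list, from the cortex, lay below the WT range of 53890 to 62920 in 3 of 4 Senp2cKO libraries (42330, 48870 and 43060) and within it in Senp2cKO 554 (58040).

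Of 19 neuron markers 10 were called higher and none lower (median 1.28), and of 12 Schwann cell markers 4 were called higher (median 0.78), where 7.14% of all genes tested were. Syp, synaptophysin, had 43.7, 40.2, 41.4 and 46.5 CPM in WT and 108, 67.6, 72.5 and 95.8 in Senp2cKO libraries (1.0, SE 0.14, edgeR adjusted p = 0.00275), and Uchl1 had 43.7, 41.1, 48.0 and 51.0 against 176, 85.6, 84.9 and 94.5 (1.26, SE 0.24, adjusted p = 0.0103). Sox10, the neural crest factor of glia, had 8.15, 6.28, 6.51 and 5.21 against 18.2, 14.2, 14.2 and 9.25 (1.10, SE 0.21, edgeR adjusted p = 0.00897). These 3 were free of overlap and were called in all 8 fits that left out 1 library. Genes of nerve fibres were high in Senp2cKO 548 in particular: Prph had 85.0 CPM there and 5.04 to 7.83 in the other mutants, Tubb3 84.0 against 5.26 to 6.59, Ngfr 116 against 7.70 to 14.4 and Nefm 21.1 against 2.98 to 5.69. The log2 fold change of Nefm was 2.70 (SE 0.64, edgeR adjusted p = 0.0235) with all libraries and 1.67 without Senp2cKO 548, and its call was lost without any one of the WT libraries (adjusted p up to 0.0744). The number of neuron markers called was 11 without Senp2cKO 548, 12 without Senp2cKO 549, 2 without WT 531, WT 536 or WT 538, 4 without WT 529 and 6 without Senp2cKO 598, and their median was 0.85 without Senp2cKO 548, and that of Schwann cell markers was 2 without WT 531, WT 536 or Senp2cKO 548 and 1 without WT 538. The part of chromaffin or nerve content in the other results was not tested.

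**Figure D4:**
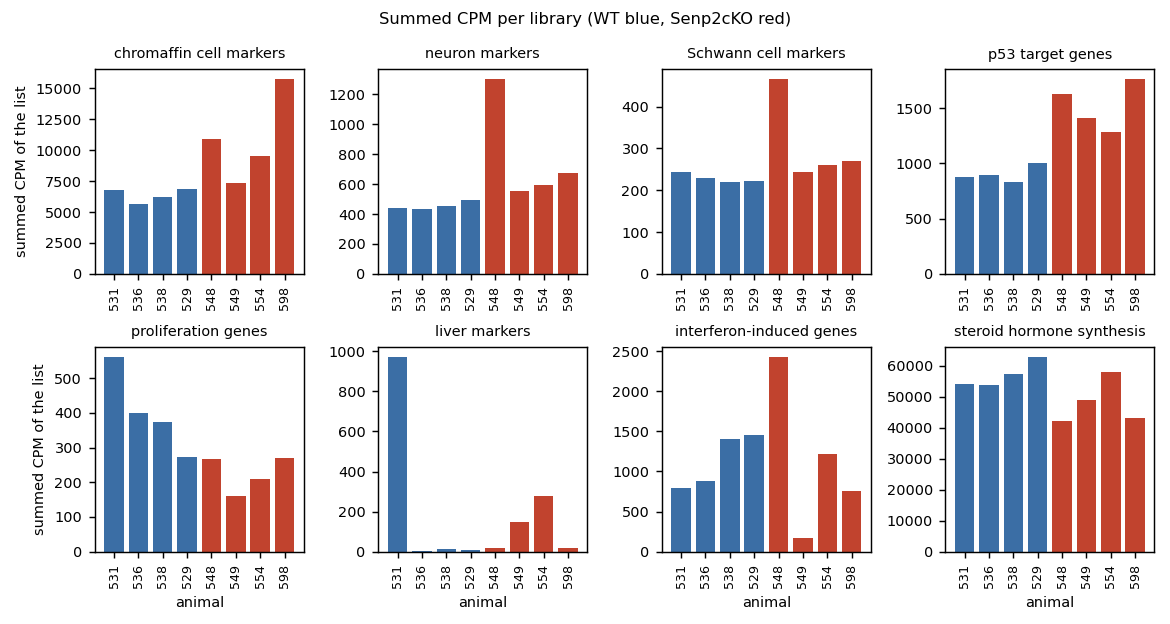
Bars give the summed CPM of 8 gene lists in each library, with WT in blue and Senp2cKO in red and every axis starting at 0. Chromaffin and p53 sums are higher in all Senp2cKO libraries than in any WT library, neuron and Schwann cell sums peak in 548, liver markers in WT 531, and the interferon sum is lowest in 549.

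Immune and vascular markers were counted in the same way. Of 13 macrophage markers 3 were called higher, where 7.14% of all genes tested were. The 3 were the lysosomal Cd68 (0.69, edgeR adjusted p = 0.0137), the protease Ctss (0.64, adjusted p = 0.00279) and Lyz2 (0.62, adjusted p = 0.0303). C1qa had 0.45 (edgeR adjusted p = 0.107) and the scavenger receptor Mrc1 -0.28 (adjusted p = 0.146). The call of Lyz2 was lost without any one of the WT libraries or without Senp2cKO 548, 549 or 598 (edgeR adjusted p up to 0.0864). Without Senp2cKO 598 no macrophage marker was called. Sums of the list were 493 to 547 CPM in WT and 577 to 830 in Senp2cKO libraries. T cell genes were at low levels, with Cd8a called higher in all 8 fits that left out 1 library, at 0.248 to 0.529 CPM in WT and 0.534 to 1.6 in Senp2cKO libraries (1.73, SE 0.37, edgeR adjusted p = 0.013). In all 5 of 11 lymphocyte markers were called higher, where 7.14% of all genes tested were, and 2 without WT 536 or WT 538 and 3 without WT 529 or Senp2cKO 548. Summed lymphocyte markers had 28.02 to 35.76 CPM in WT and 34.06, 30.75, 29.45 and 54.99 in Senp2cKO libraries. Only Senp2cKO 598 was above the WT range. None of 12 endothelium markers was called by edgeR, and all 12 had a log2 fold change below 0 (median -0.26), of which Egfl7 had -0.32 (SE 0.06, adjusted p = 0.0062) and Kdr -0.41 (SE 0.12, adjusted p = 0.0428), while 1 of the list was called without Senp2cKO 549. No marker of adipocytes, smooth muscle, red blood cells, liver or kidney was called, and the median of the liver list turned from -1.29 to 4.10 without WT 531, where 1 liver marker and 1 kidney marker were called.

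In the lysosome list Gpnmb, Atp6v0d2 and Mitf, a master regulator of melanocytes and osteoclasts, were the 3 of 23 genes called higher, where 7.14% of all genes tested were, none was lower, and the median was 0.14. Mitf had 10.5, 11.1, 11.4 and 12.9 CPM in WT and 19.3, 18.2, 14.2 and 17.7 in Senp2cKO libraries, without overlap (0.59, SE 0.12, edgeR adjusted p = 0.0103), but came under the fold threshold without WT 531, WT 536, Senp2cKO 548 or Senp2cKO 549, at 0.54 at the least. The hydrolases stood nearer to 0, with Ctsl at 0.27 (edgeR adjusted p = 0.027) and the acid lipase Lipa at -0.39 (adjusted p = 0.0369), both under the fold threshold.

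Genes of cholesterol synthesis had 3 of 27 called higher and none lower, where 7.14% of all genes tested were called higher, with a median of 0.39. Sqle, the squalene epoxidase, had 20.5, 16.6, 21.1 and 23.0 CPM in WT and 72.1, 25.5, 86.2 and 52.0 in Senp2cKO libraries (1.54, SE 0.34, edgeR adjusted p = 0.0187). Senp2cKO 549 was closest to the WT range, and the groups did not overlap. The count depended on single libraries, at 9 without Senp2cKO 549, at 1 without WT 531, WT 529 or Senp2cKO 554, and at 0 without WT 536, WT 538 or Senp2cKO 548. Lss (0.95, edgeR adjusted p = 0.0515) and Cyp51 (1.30, adjusted p = 0.0582) followed the same order of libraries, highest in Senp2cKO 554.

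Clock genes were called higher in 5 of 14 cases, where 7.14% of all genes tested were, with a median of 0.49. Arntl (BMAL1), the core activator of the clock, had 18.0, 14.7, 18.2 and 29.6 CPM in WT and 64.2, 62.6, 76.0 and 70.7 in Senp2cKO libraries, 3.41-fold higher (1.77, SE 0.20, edgeR adjusted p = 0.00112). Its partners Clock, with 64.5, 68.7, 76.4 and 82.1 against 130, 150, 110 and 126, and Npas2, with 5.76, 4.15, 6.38 and 9.28 against 14.1, 12.9, 16.1 and 19.6, rose likewise (0.82 and 1.30, edgeR adjusted p = 0.0017 and 0.00687). None of these 3 overlapped, and each was called in all 8 fits that left out 1 library. Cry1 (1.14) and Hlf (0.71) were also called (edgeR adjusted p = 0.025 and 0.0187), but Cry1 not without WT 536, WT 529 or Senp2cKO 548 and Hlf not without WT 536 or Senp2cKO 548, so that 3 of the list were called without WT 536 or Senp2cKO 548. Dbp, an output gene driven by BMAL1, had 394, 420, 398 and 321 CPM in WT and 181, 232, 342 and 103 in Senp2cKO libraries (-0.84, SE 0.32, edgeR adjusted p = 0.106). Nr1d1 had -0.31 (edgeR adjusted p = 0.395) and was lowest in Senp2cKO 598. The study's methods put the killing of mice in the morning, soon after lights on, at the end of experimental procedures.

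**Figure D5:**
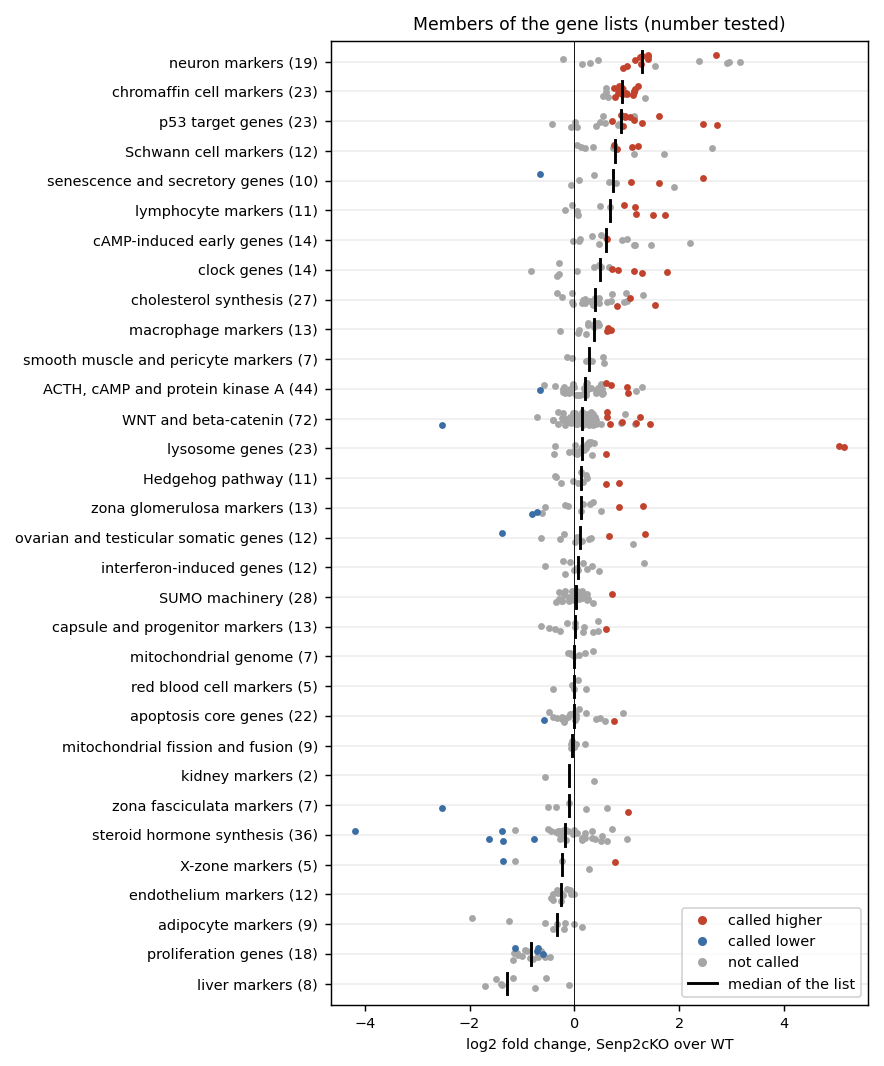
Each dot is a tested member of a gene list, placed by its log2 fold change of Senp2cKO over WT, red when called higher, blue when called lower and grey otherwise, and black bars mark the median of each list. Neuron, chromaffin and p53 lists have the highest medians (1.28, 0.91 and 0.88), and liver and proliferation lists the lowest (-1.29 and -0.83).

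Whether the genotype effect in these 8 libraries differed from that in the 8 libraries labelled male was tested as an interaction in all 16. Xist, transcribed from the inactive X chromosome, had 8169 to 25988 counts in the 8 female libraries, 3 to 16 in 7 libraries labelled male and 9759 in the library labelled male Senp2cKO 555, where the Y-linked Ddx3y had 1 count against 1843 to 3802 in those 7. Of 18166 genes 1 was called (0.0055%) at an adjusted p under 0.05 in edgeR, 2824 had an unadjusted p under 0.05, and DESeq2 called 143. It was Per2, a repressor of the clock, for which the effect was 0.47 in females and -1.29 in males, a difference of 1.75 on the log2 scale (edgeR adjusted p = 0.0311). Normalised to all 16 libraries its CPM was 102, 116, 123 and 115 in female WT and 160, 208, 160 and 104 in female Senp2cKO. Thus 3 of 4 female mutant libraries were above the WT range and Senp2cKO 598 was within it. In the libraries labelled male its CPM was 142 to 199 in WT and 61.7 to 77.3 in Senp2cKO, without overlap. Without the library labelled male Senp2cKO 555 the difference was 1.73 (edgeR adjusted p = 0.0953) and no gene was called, with 3450 at an unadjusted p under 0.05. The call held without male WT 533, male Senp2cKO 534, female Senp2cKO 549 or female Senp2cKO 598, and it was lost in the other 12 of 16 fits that left out 1 library (edgeR adjusted p up to 0.134), with a difference of 1.59 to 1.91 over all 16. Of the 1559 genes called in the 8 female libraries and tested in both sexes, 1490 had the same sign in the 8 libraries labelled male, 555 included, which share no samples with them. The share with the same sign over all 16736 genes tested in both sexes was not computed, so this count cannot be set against it.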

How the data were processed

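Whole adrenals of 4-week-old mice were sequenced as stranded poly(A) libraries, 1 library per animal, so replicates are separate animals. The authors deposited raw read counts per gene for all 16 libraries in 1 table of 34955 genes, and the submitters' processing notes name bcl2fastq 2.17.1.14, STAR 2.5.3a, HTSeq 0.6.1p1, DESeq2 1.16.1 and mm10, while the annotation release and the strand setting of the counting are not given in the sources used here. Their normalised values, fold changes and p-values in the same table were not used.

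Counts of the 8 female libraries were filtered with filterByExpr, scaled with TMM and fitted with edgeR 4.0.16 (glmQLFit, robust, and glmQLFTest) in R 4.3.3, with no covariate, and p-values were Benjamini-Hochberg adjusted over all 17616 genes tested. Genes were called at an adjusted p under 0.05 and an absolute log2 fold change over 0.58. CPM are counts relative to the TMM-scaled library size, and log2 CPM had a prior count of 2. The named genes were the 15 with the largest rise and the 15 with the largest fall among called genes with groups that did not overlap and a mean log2 CPM of at least 1, besides Senp2, called members of 32 gene lists and members named for their role. Some list members counted here are not reported by name. The comparison, its members and the lists were chosen with earlier results of these data known.

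Alternatives were DESeq2 1.42.0, limma 3.58.1 (voom), other scalings and filters, all 16 or 15 libraries in 1 model, each library left out, and, chosen after seeing the data, 6 libraries without WT 531 and Senp2cKO 548. The model was tested on simulated data, and tables and figures were made with Python 3.11.15, pandas 2.3.3 and matplotlib 3.10.9. With depths of 22025873 to 49887958 counts, 1 CPM rests on 22.5 to 50.8 counts.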

Additional observations from a re-analysis of the deposited data

Results flagged for a closer look

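Among 432 groups of 4 libraries examined (Dixon's test on sums of gene lists and on named genes), 34 had 1 library set apart from the other 3. The test's rate of about 1 in 20 (5%) holds for independent and normally distributed values. Lists were examined together with their own members, so the 34 cannot be set against that rate. No explanation was tested for any of the 34.

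Senp2cKO 548 stood apart for summed neuron markers (1300 CPM against 552 to 674 in the other mutants) and Schwann cell markers (466 against 243 to 270), and for Nefm (21.1 against 2.98 to 5.69), Syt1 (156 against 50.5 to 58.8), Uchl1 (176 against 84.9 to 94.5), Tubb3 (84.0 against 5.26 to 6.59), Prph (85.0 against 5.04 to 7.83), Ngfr (116 against 7.70 to 14.4) and Apc2 (34.2 against 18.4 to 19.8). Senp2cKO 598 stood apart for summed zG markers (6640 CPM against 4650 to 4920), Fosb (56.6 against 1.64 to 6.32), Calb1 (1.02 against 0.534 to 0.610), Bcl2l11 (77.0 against 62.6 to 63.5) and, at the low end, Fetub (3.19 against 6.59 to 7.13). Senp2cKO 554 stood apart for Akr1b7 (4550 CPM against 1330 to 1550), Nr5a1 (1950 against 1530 to 1560), Vsig8 (11.4 against 3.05 to 3.78) and, at the low end, Bbc3 (9.94 against 12.8 to 12.9), and Senp2cKO 549 for Mcm3 (27.0 against 31.6 to 32.3).

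In WT, library 531 stood apart for summed liver markers (972 CPM against 2.75 to 13.2) with Alb at 616 (against 0.622 to 6.49), for summed kidney markers (101 against 41.7 to 51.6), Nr1d1 (545 against 432 to 439), Bbc3 (9.90 against 7.37 to 7.66) and, at the low end, Ctnnb1 (894 against 982 to 994). Library 529 did so for Nr5a1 (2150 CPM against 984 to 1060), BC023105 (29.6 against 10.3 to 12.1), Rhcg (6.27 against 0.635 to 1.42), Zmat3 (49.9 against 46.6 to 46.8) and summed smooth muscle markers (337 against 306 to 310). Library 536 did so for summed endothelium markers (1650 CPM against 1430 to 1450) and Srd5a1 (69.6 against 45.5 to 49.5), and library 538 for Rab6b (6.60 against 3.68 to 4.00) and Wnt6 (8.56 against 6.63 to 6.83).

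The genotype effect on Per2 differed by 1.75 on the log2 scale between female libraries and those labelled male in the interaction test (edgeR adjusted p = 0.0311). Of the female Senp2cKO libraries 3 of 4 lay above the female WT range. In the libraries labelled male, CPM was 142 to 199 in WT and 61.7 to 77.3 in Senp2cKO. Without the library labelled male Senp2cKO 555 the adjusted p in edgeR was 0.0953. The call was lost in most fits that left out 1 library.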

How the results depend on the processing

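Of 3464 gene values under all settings 3012 kept their direction and their side of the thresholds. Of the rest 366 lost a call, 76 gained one and 10 changed sign. Only named genes and gene list members were followed in this way, not all 1657 genes called. Of the 121 called genes among them 54 were called under every setting, including 24 of the 30 highest and lowest. The number called was 2001 with DESeq2, 1922 with voom, 1766 with scaling by library size and 1333 with a mean count of at least 50. It rose to 3224 with no fold threshold and fell to 214 when the fold itself was tested (glmTreat). Leaving out 1 library gave 1012 to 1736 called genes, 725 to 1344 higher and 287 to 568 lower, and 6 libraries without WT 531 and Senp2cKO 548 gave 846, with 599 higher and 247 lower. The sex difference gave 143 genes with DESeq2 and 0 to 3 when 1 library was left out. Changes of sign were limited to values that were not called. Cyp11b2 (-0.12 with all libraries) ran from -0.88 to 0.21 when 1 library was left out, with 0.11 without WT 531, 0.21 without Senp2cKO 549 and 0.06 without Senp2cKO 554, and was 0.14 with 6 libraries. Akr1b7 (0.61) ran from -0.02, without Senp2cKO 554, to 0.94. Wnt4 (0.12) ran from -0.04, without Senp2cKO 598, to 0.23, and was -0.058 with voom. Alb (-1.40) ran from -2.49 to 4.08, the latter without WT 531, and was 2.38 with voom and 4.47 with 6 libraries. The cause was not tested, but liver markers summed highest in WT 531. No paired analysis was possible because the labels give no litter and each animal number stands for 1 library. Genes near 1 CPM rest on few counts.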

Other observations

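Among genes of the somatic cells of gonads, which share their origin with the adrenal cortex, 2 of 12 tested were called higher and 1 lower. Over all genes tested 7.14% were called higher and 2.27% lower. Summed over the list, CPM was 149 to 190 in WT and 99.7 to 179 in Senp2cKO libraries, with overlap. Sox9, the Sertoli cell factor, had 2.17, 1.06, 2.46 and 1.70 CPM in WT 531, 536, 538 and 529 and 5.14, 3.69, 4.70 and 5.10 in Senp2cKO 548, 549, 554 and 598, without overlap (log2 fold change 1.34, SE 0.26, edgeR adjusted p = 0.00902), and was called in all 8 fits that left out 1 library. Inhbb, a subunit of activin B and inhibin B, had 0.65 (SE 0.17, edgeR adjusted p = 0.0308) with overlap, and its call was lost without any one of the WT libraries or without Senp2cKO 548 or 549 (adjusted p up to 0.0883). Inha, the inhibin alpha subunit, was lower in 3 of 4 Senp2cKO libraries, at 143, 151, 155 and 120 CPM in WT against 83.2, 79.1, 143 and 58.3 (-0.65, edgeR adjusted p = 0.107). The lower gene was Cyp17a1.

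No interferon-induced gene was called among 12 tested (median 0.06), but their summed level spanned a wide range, at 788 to 1450 CPM in WT and 171 in Senp2cKO 549 against 752 to 2427 in the other Senp2cKO libraries. The 7 tested genes of the mitochondrial genome had a median of -0.003 and none was called.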
